A study of Arabidopsis thaliana with 2 samples.

Results

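The data described here are the transcripts of 3 Arabidopsis senescence genes that encode neither proteases nor NAC transcription factors: *RNS1* (AT2G02990), *SGR1* (AT4G22920) and *SWEET15* (AT5G13170, also named *SAG29*). They were taken by gene identifier from a deposited table of 733 genes, and all 3 were found in it. RNA was sequenced from 1 mature stem sample of the *cep1* mutant and 1 of the wild type (WT). By the study's methods, *cep1* is a homozygous T-DNA insertion line in *CEP1*, the gene of a papain-like cysteine protease, and the WT is Columbia-0. The labels give both samples as untreated stems taken 25 days after flowering from greenhouse plants at 20 °C with 16 h of light, whereas the study's methods give a higher temperature and RNA from stems at its last developmental stage, when flowering had stopped. The study also describes *cep1* plants as delayed in growth, and in its work on stem anatomy *cep1* stems were taken later than WT stems to match each stage. The labels give equal days for both, and equal days and equal stage need not be the same. How many plants were in each sample is not given in the sources used here.

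With 1 library per genotype there is no replicate check. The intervals below are exact 95% intervals that cover the sampling of reads only, and say nothing of the spread between plants. Every gene in the table was marked there as down-regulated in *cep1*, so a lower level in *cep1* is a condition for being listed and is no finding about these genes. What can be read from the table is how large each difference was, how the 3 genes ranked and which related genes were listed beside them. The table holds 690 of 27443 protein-coding genes in the RefSeq annotation, or 2.51%, and counts of listed genes below stand beside that share. It is a share of all such genes, whether or not they are expressed in stems. The library totals that the FPKM values imply are 22077141 reads for *cep1* and 20962056 for the WT. *CEP1* itself had 15 reads in *cep1* against 1269 in the WT. None of the 11 xylem markers looked for (*XCP1*, *IRX3*, *VND7* and others) was among the 733 down-regulated genes. The study reports *IRX1*, *IRX3*, *IRX5* and *MYB46*, all of them among these markers, as up-regulated in *cep1*. Genes that rose or did not change are outside the table, so the labelled tissue could not be checked against these markers here. The lowest WT count among listed genes was 231 reads, so a gene can also be absent because its level was low. In bulk stem RNA, fewer cells of a type and less RNA per cell cannot be told apart.

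During senescence a plant organ dismantles its own macromolecules and sends the nutrients to other parts, and each of these genes belongs to a different step of it. *RNS1* encodes a secreted ribonuclease of the T2 family, which is induced in senescing organs, under phosphate starvation and by wounding. *SGR1* (*STAY-GREEN 1*, also *NYE1*) encodes the chloroplast enzyme that removes magnesium from chlorophyll *a* and thereby commits the pigment to breakdown; mutants that lack it keep green leaves. *SWEET15* encodes a sucrose exporter of the plasma membrane. It is induced in senescing leaves and by abscisic acid and osmotic stress, and in seeds it works with *SWEET11* and *SWEET12* to pass sucrose through seed coat and endosperm to the embryo.

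In the TAIR10.1 assembly with its RefSeq annotation, *RNS1* occupies bases 873506 to 874886 of chromosome 2 (forward strand), *SGR1* bases 12016420 to 12018643 of chromosome 4 (reverse strand), and *SWEET15* bases 4181042 to 4183354 of chromosome 5 (reverse strand). Their coding sequences span 4, 4 and 6 exons and encode 230, 268 and 292 residues, in that order. No annotated gene overlaps any of the 3 on either strand. Of the protein-coding neighbours on either side, *NAC083*, a NAC gene 12901 bp from *SWEET15*, was the only one listed in the table (log2 ratio -1.02).

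The sequence just before *RNS1* and *SWEET15* is shown because these are the genes with the largest differences of the 3. Each run is the 300 bases that precede the annotated gene start, taken from RefSeq TAIR10.1 and written 5′ to 3′ on the strand of the gene, chr2:873206-873505 on the forward strand for *RNS1* and chr5:4183355-4183654 on the reverse strand for *SWEET15*. Capitals mark matches, on either strand, to the motifs described after them.
RNS1: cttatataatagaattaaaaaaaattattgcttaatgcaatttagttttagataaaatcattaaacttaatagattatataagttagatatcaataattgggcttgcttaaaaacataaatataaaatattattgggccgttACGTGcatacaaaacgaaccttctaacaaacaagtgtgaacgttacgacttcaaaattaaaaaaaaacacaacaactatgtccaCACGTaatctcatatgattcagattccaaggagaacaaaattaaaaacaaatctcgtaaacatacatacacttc
SWEET15: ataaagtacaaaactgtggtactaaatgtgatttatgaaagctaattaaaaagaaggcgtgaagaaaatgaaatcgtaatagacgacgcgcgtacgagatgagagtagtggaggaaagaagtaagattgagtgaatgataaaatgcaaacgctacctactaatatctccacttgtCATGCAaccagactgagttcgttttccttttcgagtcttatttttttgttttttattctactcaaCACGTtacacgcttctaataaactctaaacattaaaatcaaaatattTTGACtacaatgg

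Counting the base before the start as -1, *RNS1* had ACGTG, the core of the abscisic acid response element, at -158 to -154 and, on the other strand, at -74 to -70. *SWEET15* had the same core on the other strand at -60 to -56, CATGCA, an RY-type core found before many seed genes, at -125 to -120, and TTGAC, the W-box core of WRKY factors, at -13 to -9. ACGTG is present in 25.6% of the 27443 promoters of this length before protein-coding genes and in 36.2% of the 690 that belong to genes of the table, CATGCA in 10.3% and 17.5%, and TTGAC in 50.4% and 48.8%. The G-box CACGTG, which contains ACGTG, and GNATATNC, the site of the phosphate starvation regulator PHR1, were found before none of the 3 genes, and are present in 7.09% and 6.50% of all such promoters and in 12.8% and 6.96% of those of the table. The window before *SGR1* held none of the 5 motifs, and 115 of its 300 bases lie in the neighbouring gene *PYR4*. *SGR1* has a second, shorter transcript that starts 151 bases further in, which is where the deposited span of the gene begins. The 300 bases before that start held 1 match to ACGTG. A match is a description of letters, and binding was not measured.

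**Figure D1:**
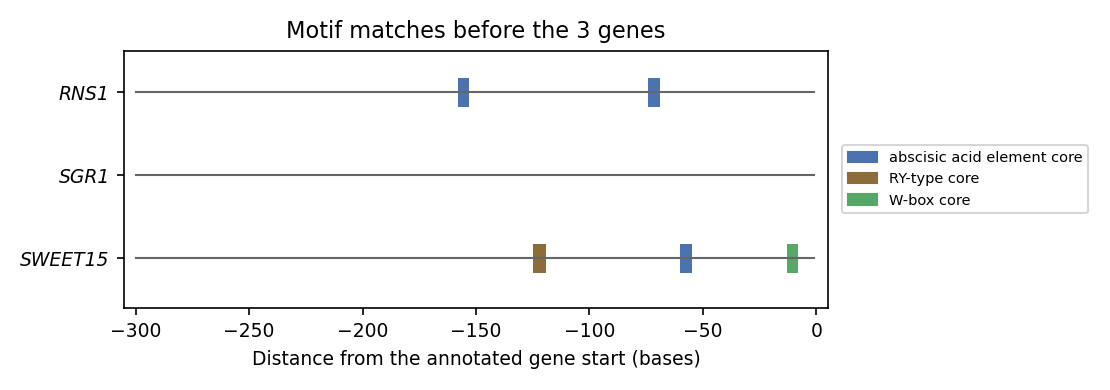
Positions of the motif matches in the 300 bases before the annotated start of each gene, with the distance from the start in bases on the x axis and coloured bars for the matches. *RNS1* has the abscisic acid element core at -158 and -74, and *SWEET15* has 1 match each to 3 motifs. The line of *SGR1*, drawn before the start of its longer transcript, is empty.

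*SWEET15* was barely detected in the *cep1* stem. It had 1 read in *cep1* against 905 in the WT, which is 0.0348 FPKM (a read level corrected for gene length and library size) in *cep1*, with an interval from 0.00088 to 0.194, and 33.1 FPKM in the WT, with an interval from 31.0 to 35.4. The upper bound in *cep1* lies far below the lower bound in the WT. Scaled by the authors' normalized read counts, the log2 ratio of *cep1* to WT was -9.66, but with 1 read its interval ran from -14.96 to -7.18. As a fold difference this is 808, with an interval from 145 to 31943. Among the 672 listed genes with at least 1 read in *cep1*, 7 had a lower log2 ratio, and a further 61 listed genes had no read there.

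*RNS1* was strongly lower in *cep1* but still detected. It had 15 reads in *cep1* against 553 in the WT, or 0.650 FPKM (0.364 to 1.07) in *cep1* and 25.2 FPKM (23.2 to 27.4) in the WT. The log2 ratio was -5.04, with an interval from -5.89 to -4.31, a level 32.9-fold lower in *cep1*. It took place 55 from the lowest among the 672 genes with reads in *cep1*.

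*SGR1* stayed well expressed in both libraries. It had 499 reads in *cep1* against 1489 in the WT, or 14.3 FPKM (13.1 to 15.6) in *cep1* and 44.9 FPKM (42.7 to 47.3) in the WT. The log2 ratio was -1.41, with an interval from -1.56 to -1.27, a level 2.66-fold lower in *cep1*. The median over all 733 genes was -1.86, and *SGR1* took place 461 of 672, so its ratio was among the smaller ones listed. Scaled to the library totals in place of the authors' normalization, the log2 ratio of *SGR1* was -1.65, outside its counting interval.

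**Figure D2:**
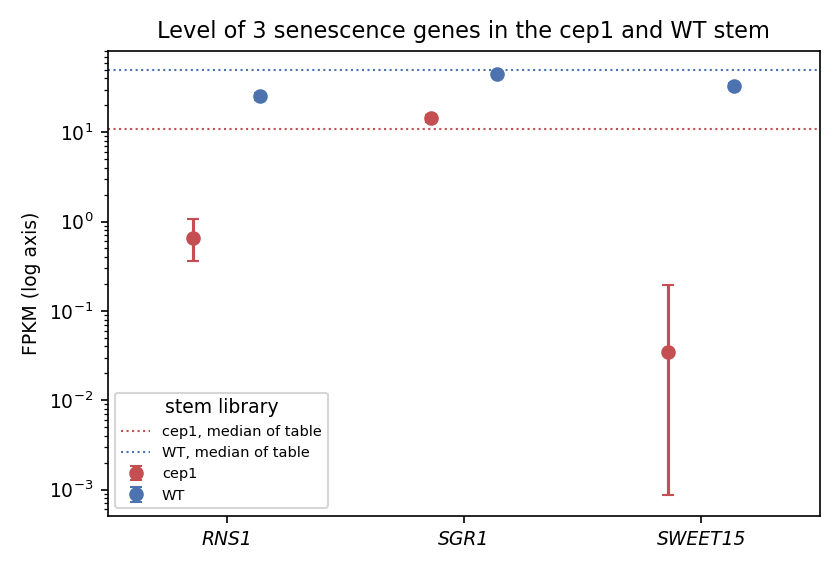
FPKM of *RNS1*, *SGR1* and *SWEET15* on a log axis in the single *cep1* library (red) and the single WT library (blue). Bars are exact 95% intervals for the counting of reads and dotted lines are the medians of the 733 listed genes, 10.9 FPKM in *cep1* and 49.4 FPKM in the WT. The WT levels lie within 25.2 to 44.9 FPKM, and the *cep1* levels within 0.0348 to 14.3 FPKM.

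The levels of the 3 genes lay closer together in the WT than in *cep1*. No listed gene had fewer than 231 reads in the WT, whereas 61 had none in *cep1*. A wider spread in *cep1* can follow from how genes were listed and is no finding about these 3. In the *cep1* stem the order per length was *SGR1* (14.3 FPKM), *RNS1* (0.650) and *SWEET15* (0.0348), and in the WT it was *SGR1* (44.9 FPKM), *SWEET15* (33.1) and *RNS1* (25.2). The counting intervals of neighbours in these orders did not overlap in either library. All 3 WT levels were below the table's WT median of 49.4 FPKM. In *cep1* only *SGR1* was above the table's median of 10.9 FPKM.

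A ratio of 2 genes' ratios does not depend on how the libraries are scaled to each other, and 3 such pairs were compared. The ratio of *SWEET15* was 303 times lower than that of *SGR1* (interval 53.9 to 12016), and the ratio of *RNS1* was 12.3 times lower than that of *SGR1* (7.33 to 22.4). The ratio of *SWEET15* was also lower than that of *RNS1*, by 24.5 times, but this rests on 1 and 15 reads in *cep1* and its interval reached from 3.75 to 1035 times. In each pair the interval left out a ratio of 1, for the counting of reads in these 2 libraries alone. The sizes depend on how low levels are weighed. On the log2 scale, *SWEET15* over *RNS1* was -4.62 from the reads and -1.05 with 1 added to each FPKM, *SWEET15* over *SGR1* was -8.24 and -3.46, and *RNS1* over *SGR1* was -3.63 and -2.41.

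All 3 genes lay at a log2 ratio of -1 or lower, as did 100% of the table, so that count carries no information about them. At -2 or lower stood *RNS1* and *SWEET15*, 2 of the 3 genes, beside 46.8% of the table. The same 2 genes stood at -4 or lower, beside 20.9% of the table. With 1 added to each FPKM, which weighs low levels less, the log2 ratio of *RNS1* was -3.99, on the other side of -4, while that of *SWEET15* was -5.04.

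**Figure D3:**
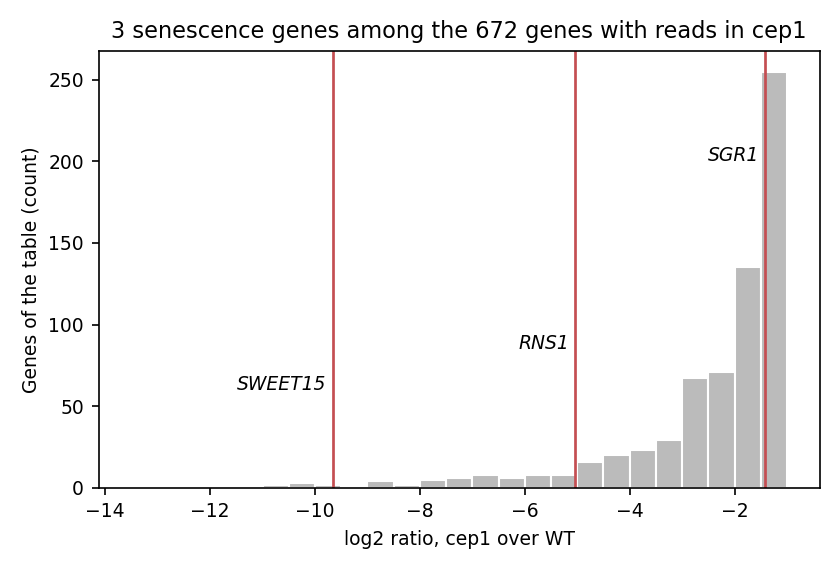
Number of genes of the table by log2 ratio of *cep1* to WT in bins of 0.5, for the 672 genes with reads in *cep1*. Red lines mark *SWEET15* at -9.66 and *RNS1* at -5.04 in the long left tail and *SGR1* at -1.41 in the crowded right end.

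Beside 2.51% of all protein-coding genes, 1 of the 13 other chlorophyll breakdown genes looked for accompanied *SGR1* in the table. This was *MES16* (AT4G16690, named *PPD* in the table), whose product is a late-acting esterase of chlorophyll catabolites, with 28.3 FPKM in *cep1* and 72.6 FPKM in the WT. Its log2 ratio was -1.12, and the interval from -1.25 to -0.99 reached across -1. The genes of the enzymes that act around *SGR1*, among them *NYC1*, *PPH*, *PAO* and *RCCR*, and its paralog *SGR2*, were outside the table and were not analysed here. None of 19 genes for light-harvesting proteins and RuBisCO small subunits was in the table.

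Among ribonucleases and nucleases, *RNS1* shared the table with 1 of 9 others, beside 2.51% of all protein-coding genes. The other gene was *RNS2* (AT2G39780), the intracellular T2 ribonuclease that recycles ribosomal RNA. *RNS2* was the more abundant of the pair, with 42.1 FPKM in *cep1* and 104 FPKM in the WT, and its log2 ratio of -1.07 had an interval from -1.18 to -0.96. Per length, *RNS1* was at 0.650 FPKM in *cep1* and 25.2 FPKM in the WT, below *RNS2* in both libraries. The senescence nuclease *BFN1* was not in the table. Of 17 genes of phosphate starvation, the table held 1, beside 2.51% of all protein-coding genes. This was *PAP17*, an acid phosphatase that is also induced in senescence. It had 3.60 FPKM in *cep1*, 29.1 FPKM in the WT and a log2 ratio of -2.78 (-3.07 to -2.49).

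Of the 16 *SWEET* genes other than *SWEET15*, 2 were listed, beside 2.51% of all protein-coding genes. The log2 ratios of these 2 genes lay on either side of the median of the whole table, -1.86. *SWEET14* (AT4G25010), like *SWEET15* a sucrose exporter, had 69 reads in *cep1* against 1521 in the WT and a log2 ratio of -4.30 (-4.67 to -3.95). *SWEET2* (AT3G14770), a vacuolar sugar transporter, had 200 reads in *cep1* against 674 in the WT and a log2 ratio of -1.59 (-1.82 to -1.36). *SWEET11* and *SWEET12*, the phloem-loading exporters that act with *SWEET15* in seeds, were outside the table. Of the 9 sucrose importers of the *SUC* family 1 was listed, beside the same 2.51%. This was *SUC5*, a gene known for its expression in the endosperm, with 3 reads in *cep1* against 345 in the WT (log2 ratio -6.68, from -8.97 to -5.12).

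Of 18 further senescence-associated genes outside the proteases and NAC factors, the table held 1, *SRG1*, which encodes an oxidoreductase of the 2-oxoglutarate-dependent dioxygenase family, with 8.50 FPKM in *cep1*, 52.8 FPKM in the WT and a log2 ratio of -2.40. Of 20 regulators of senescence outside the NAC family it held 2, and both counts stand beside 2.51% of all protein-coding genes. One was *EEL* (AT2G41070), a bZIP factor of abscisic acid responses in seeds, with 3.49 FPKM in *cep1*, 19.5 FPKM in the WT and a log2 ratio of -2.24. The other was *SAUR36*, an auxin-induced gene that promotes leaf senescence, with 16.7 FPKM in *cep1*, 61.6 FPKM in the WT and a log2 ratio of -1.64. No *WRKY* gene of the list, and none of *EIN2*, *EIN3* or *ABI5*, was in the table.

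**Figure D4:**
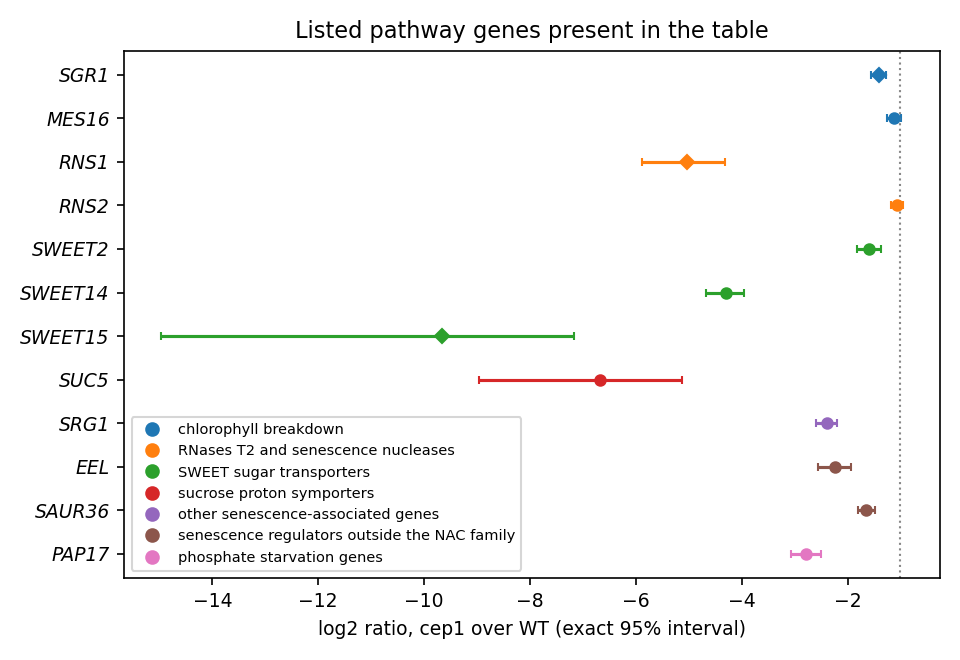
Log2 ratio of *cep1* to WT with exact 95% counting intervals for the genes of 7 pathway lists that are in the table, with diamonds for *RNS1*, *SGR1* and *SWEET15*, circles for other genes, colours for the lists and a dotted line at -1. *SWEET15*, *SUC5*, *RNS1* and *SWEET14* lie at -4.30 or below, and the remaining 8 genes lie between -2.78 and -1.07.

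Markers of seeds were looked for in the table as well. Of 20 seed markers, 16 were in the table, beside 2.51% of all protein-coding genes, and they summed to 10.4 FPKM in *cep1* and 4338 FPKM in the WT. Single markers lay between 0 and 7.10 FPKM in *cep1* and between 5.62 and 1219 FPKM in the WT. In *cep1* 13 of the 16 had no read, beside 8.32% of the table, among them all 4 cruciferins and all 5 2S albumins of the list, *OLEO1* and *ABI3*. Those with reads in *cep1* were *OLEO4* (137 reads, log2 ratio -3.44), *WRI1* (111 reads, -2.50) and *TIP3-1* (2 reads, -7.02). The markers *TIP3-2*, *FUS3*, *LEC1* and *LEC2* were outside the table. The marker sum was 0.434% of the WT reads. The WT levels of *SWEET15* (33.1 FPKM), *RNS1* (25.2) and *SGR1* (44.9) lay within the WT range of these markers, and so did their *cep1* levels except that of *SGR1*, which at 14.3 FPKM was above every one of them. The WT range also holds the table's WT median of 49.4 FPKM, and the *cep1* range begins at 0. Lying within these ranges does not set the genes apart. What seed RNA contributed to the WT levels of *SWEET15*, *RNS1* and *SGR1* was not tested.

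The genes nearest to each member by the distance between log2(FPKM + 1) values over the 2 libraries were also found. For *SWEET15* they were AT5G33251, *MES4* and AT1G62225, each with no read in *cep1* and with 33.6, 33.6 and 32.6 FPKM in the WT. For *RNS1* they were AT2G04170 (0.771 FPKM in *cep1* and 25.3 in the WT), *ENODL10* (0.437 and 27.6) and *PPCK2* (0.525 and 30.1). For *SGR1* they were AT1G46554 (14.8 FPKM in *cep1* and 46.8 in the WT), AT5G58770 (14.4 and 41.7) and the heat shock gene AT3G12580 (14.7 and 41.4). With 2 libraries such nearness says only that the levels were alike.

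**Figure D5:**
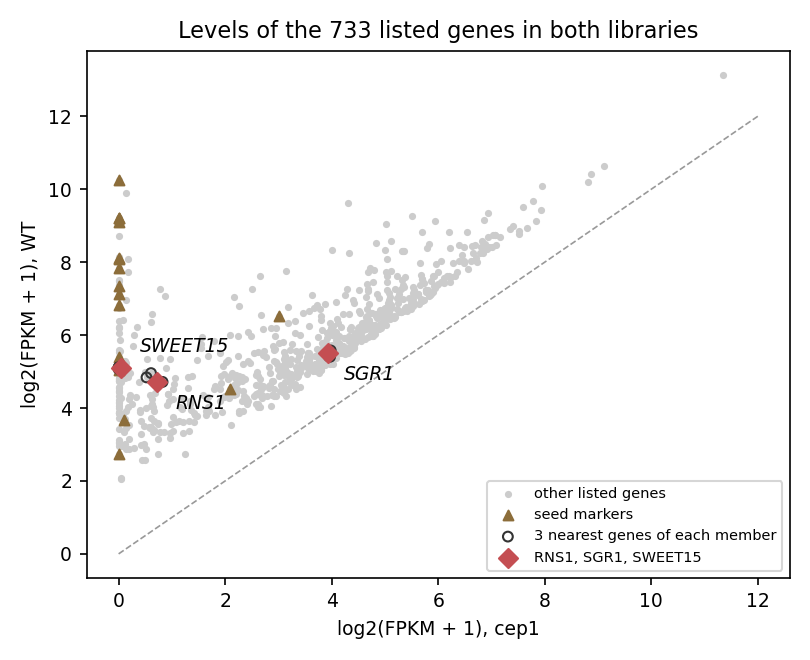
Level of each of the 733 listed genes in *cep1* (x axis) and WT (y axis) as log2(FPKM + 1), with a dashed line of equal levels, red diamonds for *RNS1*, *SGR1* and *SWEET15*, open circles for the 3 genes nearest to each and triangles for the 16 seed markers. *SWEET15* sits on the left edge, where 13 seed markers have no read in *cep1*, and *SGR1* sits in the main band of genes.

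Reads that map to near-identical copies could blur such counts, so the relatives of each gene were compared. The closest paralog of *SGR1* is *SGR2*, with 76.3% identical residues in the aligned protein, and the longest identical stretch of their transcripts is 28 bases. *RNS1* is closest to *RNS5* (63.6%) and shares at most 21 bases in a row with any of the other 4 T2 ribonucleases. *SWEET15* is closest to *SWEET12* (52.7%) and shares at most 20 bases with any of the other 16 *SWEET* transcripts.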

How the data were processed

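Stem RNA of 1 *cep1* and 1 WT sample was analysed. The authors mapped reads with TopHat2 2.0.12, and the submitters' processing notes also name Bowtie2 2.2.3 and HTSeq 0.6.1. The genome build is not given in the sources used here. The deposited table gives, per gene, the authors' raw read counts, their FPKM values and normalized read counts, a signal that equals the raw count divided by 20.3 (*cep1*) or 22.8 (WT), with values under 1 written as 0. The deposited log2 ratios and p-values hold the authors' own DEGseq comparison and were not used. The table lists 733 genes, all marked as down-regulated.

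Log2 ratios were computed from raw counts divided by these factors, with exact (Clopper-Pearson) 95% intervals. FPKM intervals are exact Poisson intervals, and ratios of ratios are conditional odds ratios with exact intervals. All cover counting error only. Library totals were worked back from FPKM, gene length and count, taking the median over genes. With 1 library per genotype no test across genes could be fitted, so no p-value is given. Depth limits *SWEET15* and *RNS1* most, and a count of 0 allows up to 3 reads. The intervals were tested before use on simulated counts that held read sampling only, so the spread between plants was not covered. The simulated counts did not reach levels as low as those of *SWEET15* and *RNS1* in *cep1*.

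Gene lists were written from general knowledge; their members and the 3 genes were chosen with earlier results of these data known. The genes named are the 3 members, *CEP1*, the listed genes found in the table and the 3 genes nearest to each member. Genes of the deposited annotation terms and the neighbour *NAC083* were named after their values had been seen, and some listed genes are named only as outside the table. All 3 identifiers matched RefSeq TAIR10.1, and each deposited span lay within the RefSeq gene. Promoters are the 300 bases before the RefSeq gene start, and proteins were translated from the annotated coding sequence and aligned with BLOSUM62 (gap opening 10, extension 0.5). The window before the shorter *SGR1* transcript and the annotation terms were added after the data had been seen. Alternatives were other scalings, pseudocounts and filters on low counts. Python 3.11.15, numpy 2.4.6, pandas 2.3.3, scipy 1.17.1, biopython 1.88 and matplotlib 3.10.9 were used.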

Additional observations from a re-analysis of the deposited data

How the results depend on the processing

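No paired analysis was possible because there was 1 library per genotype, and no library could be left out. All log2 ratios of the 3 genes were negative under every scaling and pseudocount tried. The log2 ratio of *RNS1* was -3.99 and that of *SWEET15* -5.04 with 1 added to each FPKM, and both stayed inside their counting intervals under the other alternatives. For *SGR1*, whose interval is narrow, the log2 ratio was -1.65 by library totals and by the FPKM ratio, -1.58 by unscaled reads, -1.59 with 1 and -1.65 with 0.1 added to each FPKM, all further from 0 than the -1.41 of the authors' normalization. With 1 added to each FPKM, the log2 ratio of ratios was -1.05 for *SWEET15* over *RNS1*, -3.46 for *SWEET15* over *SGR1* and -2.41 for *RNS1* over *SGR1*, against -4.62, -8.24 and -3.63 from the reads.

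Among all listed genes, 343 lay at -2 or lower and 153 at -4 or lower. With at least 20 reads required in both libraries, which leaves out *RNS1* and *SWEET15*, these were 208 and 22 of 598 genes. At -4 or lower there were 96 genes with 1 added to each FPKM and 92 among genes with at least 1 read in *cep1*. With 15 reads and 1 read in *cep1*, depth limits the ratios of *RNS1* and *SWEET15*, and the spread between plants is not known for any of the 3 genes.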

Other observations

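The annotation terms deposited with the table place the 3 genes in different groups, chosen here after their values had been seen. Of the 10 listed genes with the term leaf senescence, *SWEET15* was the only one of the 3. The others included *ESP*, an epithiospecifier protein of glucosinolate breakdown (31.3 FPKM in *cep1* against 525 in the WT, log2 ratio -3.83), *HAI1*, a protein phosphatase of abscisic acid signalling (3.16 FPKM in *cep1* against 39.1 in the WT, -3.39), the senescence marker *SAG12*, a cysteine protease (27.4 FPKM in *cep1* against 369 in the WT, -3.51), and the carnitine transporter gene *OCT1* (-2.02). At -2 or lower stood 6 of the 10 genes, beside 46.8% of the table. The rest were *SAUR36* (-1.64), *NAC029* (-1.50), *MES16* (-1.12) and *NAC083* (-1.02). The median log2 ratio of the 10 genes was -2.23, beside -1.86 for the whole table. Each of them had reads in *cep1*, as did 672 of the 733 listed genes.

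*RNS1* was 1 of 5 listed genes with the term cellular response to phosphate starvation. Next to it stood *PPCK2*, a kinase of phosphoenolpyruvate carboxylase, with 12 reads in *cep1* against 653 in the WT (log2 ratio -5.60), then *HIPP22* (-2.36), *MIPS2* (-1.75) and *PHO1-H10* (-1.66). *RNS1* also carried the term for anthocyanin biosynthesis, with 3 other listed genes and a median of -2.55 over the 4. Of these AT3G59270 had 28 reads in *cep1* against 390 in the WT (log2 ratio -3.64), the chalcone synthase gene *CHS* had a log2 ratio of -1.19 and the dihydroflavonol reductase gene *DFRA* one of -1.47.

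*SGR1* had the lowest log2 ratio of the 6 listed genes with the term chlorophyll catabolic process, which lay between -1.41 and -1.01. Its interval (-1.56 to -1.27) overlapped that of the next gene, AT1G62250, at -1.39 (-1.53 to -1.25), so this place is not firm. The term sucrose transport held *SWEET15*, *SUC5* and *SWEET14* and no other listed gene.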
